A study of Homo sapiens with 12 samples.

Results

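The response of LNCaPabl-Abi prostate cancer cells to dexamethasone was measured on 6 expression arrays, of 12 in the series. The members were taken by their array titles. The 3 Abi_Dex arrays came from cells given 100 nM dexamethasone, a synthetic glucocorticoid, for 24 h, and the 3 Abi_Ctrl arrays from cells of the same line given the solvent DMSO for 24 h. LNCaPabl-Abi is labelled as an epithelial prostate cancer cell line and is a derivative of LNCaP, an established line grown from a lymph node metastasis. The labels describe no gene edit and no transgene in either group, do not spell out "Abi", and give fetal calf serum in the medium of LNCaP. All 6 arrays therefore describe 1 cell line. The remaining 6 arrays belong to a sister line, LNCaPabl-Enza, and are not described here.

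The glucocorticoid receptor, encoded by NR3C1, is a transcription factor that waits in the cytoplasm bound to heat shock proteins, enters the nucleus when it binds a hormone such as dexamethasone, and binds DNA at glucocorticoid response elements. In prostate cancer cells with an active glucocorticoid receptor, some genes known as androgen-induced also respond to glucocorticoids. In salt-transporting epithelia, glucocorticoids and mineralocorticoids raise the kinase SGK1, which keeps the epithelial sodium channel at the cell surface.

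The deposited values are log2 levels, so a difference of 1 is a doubling of the signal, and they ran between 1.664 and 18.63. A gene was called when its adjusted p in limma, a linear model with variances moderated across genes, was below 0.05 after Benjamini-Hochberg adjustment over all 17687 genes. Array medians lay between 6.558 and 6.703, and each array's median correlation with the other 5 was between 0.988, on Abi_Ctrl replicate 2, and 0.993. Nothing in the labels states that the 3 replicates of a group are separate cultures, and the p-values rest on a spread that could be technical only. With 3 arrays a group, their number limits the precision.

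The label of an epithelial prostate line was set against marker genes. KRT8, a keratin of luminal cells, had log2 levels of 14.2 to 14.6 with dexamethasone and 13.6 to 14.0 with DMSO. EPCAM, an epithelial adhesion protein, lay at 13.6 to 14.1 with dexamethasone and 13.5 to 14.2 with DMSO, and the prostate homeobox factor HOXB13 at 12.9 to 13.1 with dexamethasone and 12.5 to 13.0 with DMSO. These 3 luminal markers stood far above the median gene, at 6.64 over the 6 arrays. By contrast, the immune marker PTPRC lay at 4.12 to 4.35 with dexamethasone and 3.97 to 5.16 with DMSO, the endothelial marker PECAM1 at 3.37 to 3.83 with dexamethasone and 3.77 to 3.88 with DMSO, and the collagen gene COL1A1 at 4.59 to 4.98 with dexamethasone and 4.40 to 4.78 with DMSO. The median of the background probes was 3.95 to 3.98 on the 6 arrays, so these 3 markers lay near it. Other members of their lists were brighter: COL1A2 at 7.87 to 8.09 with dexamethasone and 7.64 to 8.63 with DMSO, ACTA2 at 8.05 to 10.6 with dexamethasone and 7.41 to 10.4 with DMSO, CD68 at 6.93 to 7.70 with dexamethasone and 6.26 to 6.55 with DMSO, and ENG at 7.46 to 8.01 with dexamethasone and 7.21 to 7.49 with DMSO. Some luminal markers were in turn dim. TRPM8 lay near background, at 3.81 to 3.87 with dexamethasone and 3.89 to 4.01 with DMSO. DPP4 lay at 4.09 to 4.57 with dexamethasone and 3.76 to 4.51 with DMSO. Above the median gene lay 13 of 20 luminal markers, 2 of 14 fibroblast, 2 of 14 immune, 1 of 10 endothelial and 2 of 17 mesenchymal markers. The basal keratin KRT5 lay at 3.52 to 3.80 with dexamethasone and 3.58 to 4.80 with DMSO, and the neuroendocrine marker CHGA at 3.32 to 3.47 with dexamethasone and 2.91 to 3.98 with DMSO. Above the median gene lay 3 of 10 basal markers, among them the cytoskeletal linker DST at 10.1 to 10.8 with dexamethasone and 10.6 to 11.3 with DMSO, and 2 of 20 neuroendocrine markers, AURKA at 12.2 to 12.6 with dexamethasone and 12.6 to 12.8 with DMSO and EZH2 at 10.2 to 10.7 with dexamethasone and 10.6 to 11.1 with DMSO. AURKA and EZH2 are also proliferation genes. Of 85 measured members on 6 marker lists of other cell types (basal, neuroendocrine, mesenchymal, fibroblast, immune and endothelial), 0 were called by limma. At an unadjusted p under 0.05, 2 were higher and 3 lower, against 568 higher and 465 lower of all 17687 genes. The list medians of the log2 difference lay between -0.09 and 0.14.

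Dexamethasone changed few genes past the threshold, and nearly all of them rose. Of the 17687 genes tested, 21 (0.119%) were called higher and 1 (0.00565%) was called lower. Among the genes that rose were the kinase gene SGK1, the sodium channel subunit SCNN1G, the prostate proteases KLK4 and TMPRSS2 and the digestive protease PGC, and the gene that fell was that of the glucocorticoid receptor itself, NR3C1. The called higher genes had log2 differences of 1.30 to 7.39, with a median of 2.15, and 13 of them exceeded 2. The median difference of all genes was 0.00 on the log2 scale, and 50.4% of genes had a positive one. In DMSO, 11 of the 21 lay below the median gene, and with dexamethasone 2 did. At an unadjusted p under 0.05, 568 genes were higher and 465 lower. The 3 dexamethasone arrays all lay above the 3 DMSO arrays for 1109 genes (6.27%) and all below them for 1063 genes (6.01%).

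**Figure D1:**
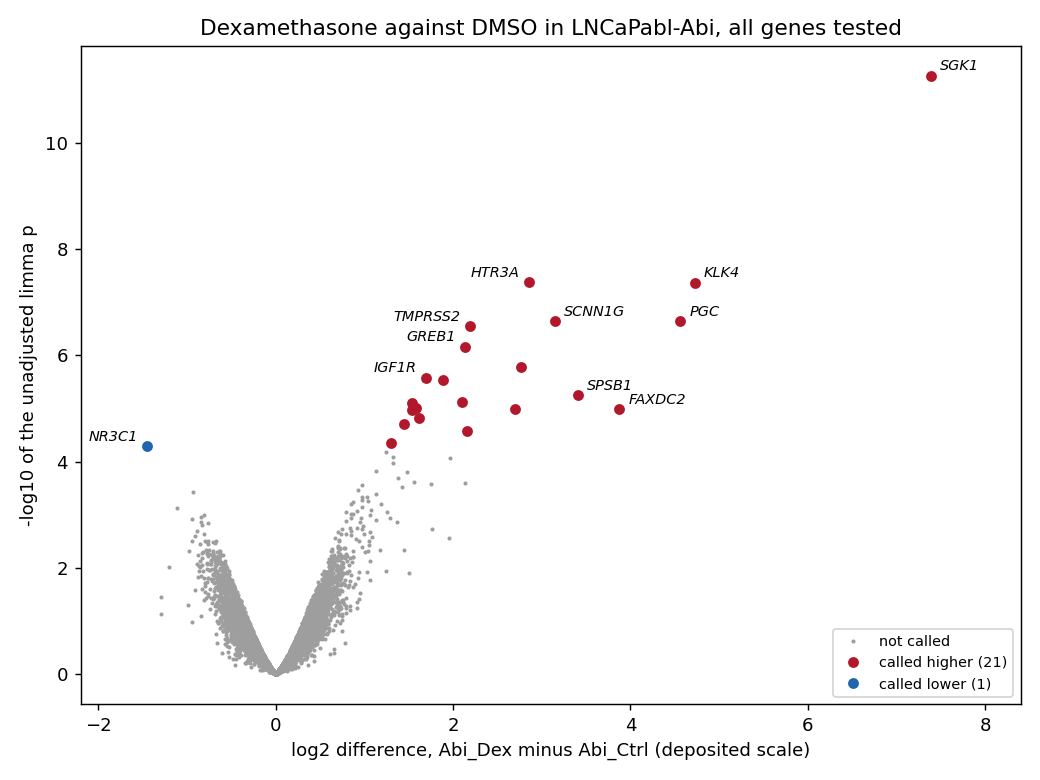
Log2 difference (dexamethasone minus DMSO, horizontal axis) of every gene tested against minus log10 of its unadjusted limma p (vertical axis), 3 arrays in each group. The called genes are coloured and named where space allows, with SGK1 at 7.39 the farthest to the right and NR3C1 at -1.45 the only one called on the left.

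NR3C1, the receptor through which dexamethasone acts, fell. Its log2 level was 9.44, 9.99 and 10.16 on the dexamethasone arrays, against 11.14, 11.30 and 11.49 on the DMSO arrays. Every dexamethasone array lay below every DMSO array, while the transcript stayed among the well-expressed genes in both groups. The difference was -1.45 ± 0.22 (SE, 3 arrays in each group, limma adjusted p = 0.0413), a 2.73-fold lower level. The call is a narrow one: with any 1 of the 6 arrays left out, its adjusted p was between 0.0562 and 0.231, with a difference between -1.24 and -1.60. It also missed the threshold in a fit of 11 arrays of both lines (adjusted p = 0.723) and in one over all 24257 rows other than controls (adjusted p = 0.112). Of the 28 measured steroid receptors, heat shock partners and coregulators, 1 (NR3C1) was called lower, where 0.00565% of all genes were. Of the 28, 14 had positive and 14 negative differences, and the median was -0.03. In 4 (14.3%), NR3C1 among them, the dexamethasone arrays all lay below the DMSO arrays, against 6.01% of all genes. The other 3 had small differences and were not called. HSP90AA1, which encodes the chaperone that holds the unliganded receptor, differed by -0.34, the coregulator TRIM24 by -0.44 and the Mediator subunit MED1 by -0.29. The glucocorticoid target FKBP5, a co-chaperone, is not analysed here.

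SGK1, a kinase that phosphorylates the ubiquitin ligase NEDD4L and so keeps sodium channels at the membrane, rose more than any other gene. It had log2 levels of 13.59, 13.29 and 13.83 on the dexamethasone arrays, against 6.52, 6.20 and 5.82 on the DMSO arrays. The gene lay near the median gene in DMSO and among the brightest with dexamethasone. The means were 13.57 ± 0.27 with dexamethasone and 6.18 ± 0.35 with DMSO (SD, n = 3 each), and the difference of 7.39 ± 0.23 (SE, limma adjusted p = 9.62e-08) corresponds to 168-fold. The related kinase genes differed little: SGK3 by 0.08 and SGK2 by 0.03, neither called.

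SCNN1G encodes a subunit (gamma) of the sodium channel that SGK1 regulates. It had levels of 7.10, 7.10 and 7.99 with dexamethasone, against 4.16, 3.96 and 4.60 with DMSO. The DMSO values were close to background, 1 of them at or below the median of the background probes, and the dexamethasone values were above the median gene. The difference was 3.15 ± 0.27 (limma adjusted p = 0.000803), or 8.88-fold, and at least 8.87-fold with that array set to the background median. The beta subunit gene SCNN1B differed by 1.05 ± 0.28 (adjusted p = 0.592) and the alpha subunit gene SCNN1A by 0.37, neither called. KCNMA1, a calcium-activated potassium channel, differed by 1.37 ± 0.25 (adjusted p = 0.122) and NEDD4L by 0.64 ± 0.20 (adjusted p = 0.708). Of the 22 measured genes of epithelial sodium and potassium transport, 2 (SGK1 and SCNN1G) were called higher, where 0.119% of all genes were. Of the 22, 16 had positive and 6 negative differences, and the median was 0.21. In 7 (31.8%) the dexamethasone arrays all lay above the DMSO arrays, against 6.27% of all genes.

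Classical glucocorticoid-induced genes were mostly positive in sign, but few passed the test. Of 38 measured, 2 (SGK1 and SPSB1) were called higher, where 0.119% of all genes were, and 0 lower. Of the 38, 26 were positive and 12 negative, and the median was 0.19. In 10 (26.3%) the groups did not overlap, all higher, against 6.27% of all genes. SPSB1 had been placed on the list with its values known, and without it 1 of 37 was called and the median was 0.16. SPSB1, an adaptor of a ubiquitin ligase, had levels of 9.21, 9.18 and 7.41 with dexamethasone, against 5.07, 5.49 and 5.01 with DMSO. Dexamethasone replicate 3 was lower than the other two but still above every DMSO array. The difference was 3.41 ± 0.41 (adjusted p = 0.00892), or 10.6-fold, and it kept its call in 2 of the 6 fits that left out 1 array.

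Several textbook targets of the receptor gave positive values that missed the threshold. TSC22D3, known as GILZ, which restrains inflammatory transcription factors, had levels of 11.14, 10.62 and 9.48 with dexamethasone, against 9.74, 9.25 and 7.75 with DMSO. Its groups overlapped, because the arrays numbered 3 were the lowest in both groups, and the difference was 1.50 ± 0.50 (adjusted p = 0.750). Between arrays of the same number the difference was 1.40, 1.37 and 1.74. RGS2, an inhibitor of G protein signalling, had levels of 7.44, 6.96 and 8.85 with dexamethasone, against 5.70, 5.30 and 5.85 with DMSO, a difference of 2.13 ± 0.40 (adjusted p = 0.144). The transcription factor KLF9 differed by 0.98 ± 0.21 (adjusted p = 0.279), the monoamine oxidase MAOA by 0.98 ± 0.18 (adjusted p = 0.149) and the EGF receptor inhibitor ERRFI1 by 1.08 ± 0.28 (adjusted p = 0.564). None of these 5 was called, and they are among the higher members of the list. Of its 38 members, 26 were positive and 12 negative. The negative ones included CEBPD (-0.01), TNFAIP3 (-0.03), TAT (-0.16) and LCN2 (-0.44), none called.

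**Figure D2:**
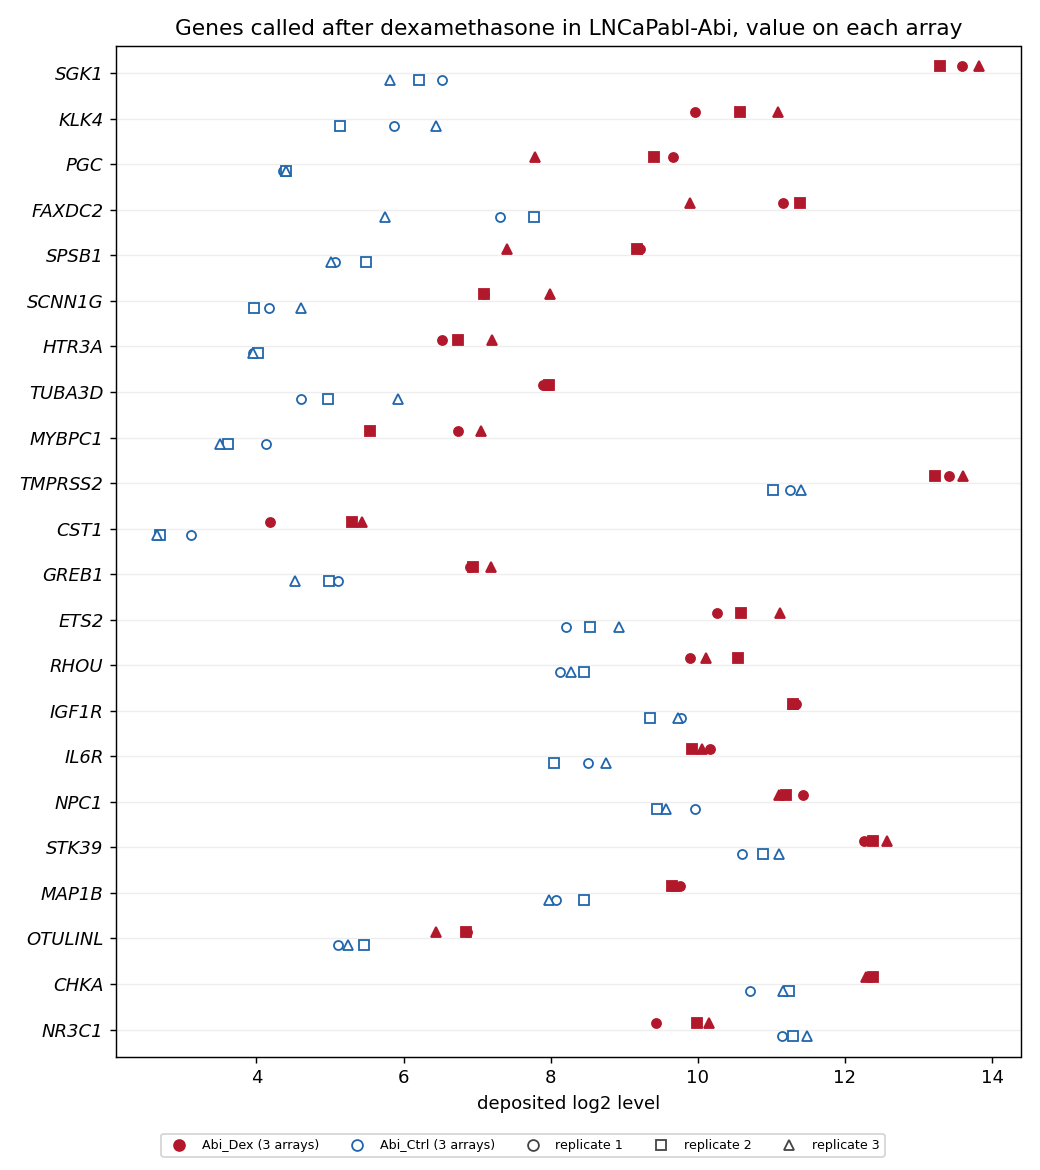
Deposited log2 level (horizontal axis) of the 22 called genes on each array, with Abi_Dex as filled and Abi_Ctrl as open symbols and the shape giving the replicate number. The groups do not overlap for any of them: SGK1 is at 13.29 to 13.83 with dexamethasone and 5.82 to 6.52 with DMSO, and NR3C1 is the 1 gene whose dexamethasone arrays lie on the left.

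Genes known as androgen-induced in prostate cells were mostly positive in sign, and some of them rose. Of 34 measured, 6 were called higher (KLK4, FAXDC2, TUBA3D, MYBPC1, TMPRSS2 and RHOU), where 0.119% of all genes were, and 0 lower. Of these 34, 27 were positive and 7 negative, and the median was 0.32. In 13 (38.2%) the dexamethasone arrays all lay above the DMSO arrays, against 6.27% of all genes. FAXDC2, TUBA3D, MYBPC1 and the uncalled HOMER2 had been placed on this list with their values known. Without these 4, 3 of 30 were called higher, 23 were positive, 9 had dexamethasone arrays all above the DMSO arrays, and the median was 0.27.

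KLK4, a kallikrein protease of prostate secretory cells, had levels of 9.97, 10.58 and 11.09 with dexamethasone, against 5.87, 5.14 and 6.44 with DMSO. The lowest dexamethasone array was well above the highest DMSO array. The means were 10.54 ± 0.56 with dexamethasone and 5.82 ± 0.65 with DMSO (SD, n = 3 each), a difference of 4.73 ± 0.35 (adjusted p = 0.000250), or 26.5-fold. KLK3, which encodes prostate-specific antigen, had levels of 7.88, 8.09 and 9.88 with dexamethasone, against 7.08, 6.81 and 6.68 with DMSO, a difference of 1.76 ± 0.43 (adjusted p = 0.457). KLK2, its neighbour and close paralog, had levels of 6.24, 6.18 and 6.87 with dexamethasone, against 3.93, 4.77 and 5.32 with DMSO, a difference of 1.76 ± 0.33 (adjusted p = 0.144). The groups of KLK2 and KLK3 did not overlap, though neither was called. The other 12 measured kallikreins differed by -0.28 to 0.35, and all 12 had overlapping groups.

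TMPRSS2, a membrane serine protease of luminal cells, was bright in both groups. It had levels of 13.42, 13.23 and 13.60 with dexamethasone, against 11.25, 11.03 and 11.41 with DMSO. The difference was 2.19 ± 0.19 (adjusted p = 0.000824), or 4.55-fold. PGC, which encodes the stomach proteinase progastricsin that prostate epithelium also makes, had levels of 9.66, 9.40 and 7.79 with dexamethasone, against 4.36, 4.40 and 4.40 with DMSO. It was near background on all 3 DMSO arrays, and its lowest dexamethasone array, replicate 3, was still well above them. Its means were 8.95 ± 1.02 with dexamethasone and 4.39 ± 0.02 with DMSO (SD, n = 3 each). The difference of 4.57 ± 0.40 (adjusted p = 0.000803) corresponds to 23.7-fold. Of 34 secretory proteins and proteases, 3 (KLK4, PGC and TMPRSS2) were called higher, where 0.119% of all genes were. Of the 34, 19 were positive and 15 negative, and the median was 0.05. In 6 (17.6%) the dexamethasone arrays all lay above the DMSO arrays, against 6.27% of all genes.

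FAXDC2, a fatty acid hydroxylase domain protein, had levels of 11.17, 11.40 and 9.89 with dexamethasone, against 7.31, 7.77 and 5.75 with DMSO. The arrays numbered 3 were again the lowest of both groups. The difference was 3.87 ± 0.50 (adjusted p = 0.0112), or 14.7-fold, and the call held in 2 of the 6 fits that left out 1 array. MYBPC1, a myosin-binding protein of slow muscle, had levels of 6.74, 5.55 and 7.06 with dexamethasone, against 4.13, 3.62 and 3.51 with DMSO, a difference of 2.70 ± 0.35 (adjusted p = 0.0112). With the 2 DMSO arrays below the background median set to it, the level was at least 5.36-fold higher. RHOU, a small GTPase that acts on cell shape, had levels of 9.89, 10.54 and 10.11 with dexamethasone, against 8.13, 8.46 and 8.27 with DMSO, a difference of 1.89 ± 0.21 (adjusted p = 0.00521), or 3.71-fold. A second row of the table for RHOU gave 1.70.

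TUBA3D, an alpha tubulin, had levels of 7.90, 7.97 and 7.96 with dexamethasone, against 4.61, 4.98 and 5.93 with DMSO. The 3 dexamethasone arrays were almost level, and the DMSO arrays were spread. The difference was 2.77 ± 0.29 (adjusted p = 0.00364), or 6.83-fold. TUBA3D has near-identical copies, and the array's probes may not tell them apart. In the same fit TUBA3C differed by 0.27 and TUBA3E by 0.72, neither called.

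Genes known as androgen-repressed showed no common direction. Of 21 measured, 10 were positive and 11 negative, the median was -0.12, and 1, IGF1R, was called, in the direction opposite to the list's name. Of all genes 0.119% were called higher. IGF1R, the receptor of insulin-like growth factors, had levels of 11.34, 11.29 and 11.30 with dexamethasone, against 9.77, 9.35 and 9.73 with DMSO, a difference of 1.69 ± 0.19 (adjusted p = 0.00520), or 3.23-fold. OPRK1, the kappa opioid receptor and a known androgen-repressed gene, differed by -1.29 ± 0.54 (adjusted p = 0.829) with overlapping groups. Among 30 steroid-converting enzymes 0 were called by limma, with 16 positive and 14 negative differences and a median of 0.03. At an unadjusted p under 0.05, 2 were higher and 0 lower, against 568 higher and 465 lower of all 17687 genes. The largest difference was that of HSD17B11, at 1.05 ± 0.28 (adjusted p = 0.655).

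Luminal markers were also higher on average, and 7 of them stand on the androgen-induced list too. Of 20 measured, 1 (TMPRSS2) was called higher, where 0.119% of all genes were. Of the 20, 15 were positive and 5 negative, and the median was 0.35. In 9 (45%) the dexamethasone arrays all lay above the DMSO arrays, against 6.27% of all genes. KRT19 differed by 0.84 ± 0.21 (adjusted p = 0.482), KRT18 by 0.60 and KRT8 by 0.50. SLC45A3, a transporter gene known as prostein, differed by 0.78. Other members did not rise: FOLH1 differed by -0.47, ACP3 by -0.25, EPCAM by -0.09 and FOXA1 by 0.06, none called. The mean level of the luminal list was 9.90 to 10.16 on the dexamethasone arrays and 9.41 to 9.62 on the DMSO arrays, so the ranges did not overlap. This mean includes the largest differences of the list, those of TMPRSS2 (2.19), KLK3 (1.76) and KLK2 (1.76).

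The other called genes stood on various lists or on none. HTR3A, a subunit of the serotonin-gated ion channel, had levels of 6.53, 6.75 and 7.21 with dexamethasone, against 3.95, 4.02 and 3.95 with DMSO. It was near background in all 3 DMSO arrays and near the median gene with dexamethasone. The difference was 2.85 ± 0.21 (adjusted p = 0.000250). As 2 DMSO arrays were at or below the median of the background probes, the fold is a bound, at least 7.17-fold when each DMSO array is set to no less than that median. GREB1, a nuclear protein known for its response to oestrogen in breast cancer cells and to androgen in prostate cells, had levels of 6.90, 6.95 and 7.18 with dexamethasone, against 5.11, 4.99 and 4.53 with DMSO, a difference of 2.14 ± 0.21 (adjusted p = 0.00172), or 4.40-fold. ETS2, an ETS family transcription factor, had levels of 10.26, 10.59 and 11.12 with dexamethasone, against 8.21, 8.53 and 8.93 with DMSO, a difference of 2.10 ± 0.26 (adjusted p = 0.0105), or 4.29-fold.

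CST1, a secreted cystatin that inhibits cysteine proteases, had levels of 4.19, 5.30 and 5.43 with dexamethasone, against 3.11, 2.70 and 2.65 with DMSO. All values were low, and the DMSO values were below the median of the background probes. The difference on the deposited scale was 2.15 ± 0.31 (adjusted p = 0.0230), but with the DMSO arrays set to the background median it was at least 2-fold. The call held in 1 of the 6 fits that left out 1 array. Its similar paralogs CST4 and CST2 differed by 0.97 and 0.37, neither called, and the probes may not tell the 3 apart.

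IL6R, the receptor of the inflammatory cytokine interleukin-6, had levels of 10.17, 9.92 and 10.05 with dexamethasone, against 8.51, 8.04 and 8.75 with DMSO. The difference was 1.61 ± 0.22 (adjusted p = 0.0147), or 3.06-fold, while IL6ST, its signalling partner, differed by -0.05. IL6R was the 1 called gene of 25 measured NF-kB and inflammatory genes, where 0.119% of all genes were called higher. Of the 25, 16 were positive and 9 negative, with a median of 0.03. NPC1, which carries cholesterol out of lysosomes, had levels of 11.43, 11.20 and 11.11 with dexamethasone, against 9.97, 9.45 and 9.57 with DMSO, a difference of 1.58 ± 0.20 (adjusted p = 0.0112), or 2.99-fold. It was the 1 called gene of 22 lysosome and autophagy genes, against the same 0.119% of all genes. Of the 22, 11 were positive and 11 negative, with a median of 0.01.

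The 4 remaining called genes fell outside the rule for named genes and were named after their values were seen. So were a number of uncalled list members, such as RGS2, KLK2 and NDC80. STK39, the kinase SPAK that phosphorylates sodium and chloride cotransporters, had levels of 12.26, 12.38 and 12.58 with dexamethasone, against 10.60, 10.89 and 11.11 with DMSO, a difference of 1.54 ± 0.20 (adjusted p = 0.0112). MAP1B, a microtubule-associated protein, had levels of 9.76, 9.65 and 9.69 with dexamethasone, against 8.08, 8.45 and 7.97 with DMSO. Its difference was 1.54 ± 0.19 (adjusted p = 0.0105). Each corresponds to about the same fold, 2.91 for STK39 and 2.90 for MAP1B. OTULINL, an inactive relative of the deubiquitinase OTULIN, had levels of 6.87, 6.85 and 6.43 with dexamethasone, against 5.11, 5.46 and 5.24 with DMSO. Its difference was 1.45 ± 0.20 (adjusted p = 0.0180). CHKA, the choline kinase that starts phosphatidylcholine synthesis, had levels of 12.35, 12.38 and 12.29 with dexamethasone, against 10.71, 11.24 and 11.15 with DMSO, a difference of 1.30 ± 0.20 (adjusted p = 0.0380). For all 4 genes the lowest dexamethasone array lay above the highest DMSO array.

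The count of higher genes depended on single arrays, and leaving out 1 array gave 10 to 22. The 8 genes SGK1, KLK4, PGC, SCNN1G, HTR3A, TMPRSS2, GREB1 and RHOU were called in all 6 of these fits, and CHKA in 0. Without Abi_Dex replicate 2 the count was 10, and SPSB1, IL6R, STK39, OTULINL, MAP1B, FAXDC2, CHKA, IGF1R, NPC1, CST1 and ETS2 lost the call, with adjusted p of 0.0513 to 0.305. Without Abi_Ctrl replicate 2 it was 11, and SPSB1, IL6R, TUBA3D, STK39, OTULINL, FAXDC2, CHKA, MYBPC1, NPC1, CST1 and ETS2 lost it, at 0.0545 to 0.215. Without Abi_Dex replicate 1 it was 12, and SPSB1, IL6R, STK39, OTULINL, MAP1B, FAXDC2, CHKA, MYBPC1 and NPC1 lost it, at 0.0527 to 0.257. Without Abi_Ctrl replicate 1 it was 13, and SPSB1, IL6R, STK39, OTULINL, MAP1B, FAXDC2, CHKA, CST1 and ETS2 lost it, at 0.0573 to 0.152. Without Abi_Dex replicate 3 it was 20, with IL6R, STK39, CHKA and CST1 lost, at 0.0720 to 0.132, and without Abi_Ctrl replicate 3 it was 22, with OTULINL, CHKA and CST1 lost, at 0.0638 to 0.0789. Each of these genes stayed higher with dexamethasone in every such fit, with log2 differences of 1.14 or more.

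The RefSeq promoters of the called genes were searched for letters of the receptor's recognition element, whose arm reads AGAACA on 1 strand and TGTTCT on the other. A gene can have several promoter windows, and it was counted when any of them held an arm. Promoters were taken from 250 bases before to 50 bases after the transcription start in build GRCh38.p14, and 14 of the 21 called higher genes had one. An arm on either strand was found in 4 of these 14 (28.6%), against 2094 of 14250 genes tested that had a promoter (14.7%). The looser element, GNACA and TGTNC with 3 bases between them, was in 0 of the 14 and in 55 of the 14250 (0.386%). Printed here from RefSeq are the 4 promoters with an arm, that of SGK1 because the gene rose most and the others because an arm was found in them. The arm is in capitals, bases run from 5′ to 3′ on the gene's strand, and each stretch ends at the transcription start or, for SGK1, just past it.
SGK1 promoter, chr6:134177851-134178111, minus strand: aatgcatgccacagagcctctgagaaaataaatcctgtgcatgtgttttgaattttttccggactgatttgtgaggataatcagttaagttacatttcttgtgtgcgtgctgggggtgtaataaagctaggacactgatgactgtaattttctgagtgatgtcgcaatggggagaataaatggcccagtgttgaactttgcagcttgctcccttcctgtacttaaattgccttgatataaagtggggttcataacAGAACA
MYBPC1 promoter, chr12:101594721-101594970, plus strand: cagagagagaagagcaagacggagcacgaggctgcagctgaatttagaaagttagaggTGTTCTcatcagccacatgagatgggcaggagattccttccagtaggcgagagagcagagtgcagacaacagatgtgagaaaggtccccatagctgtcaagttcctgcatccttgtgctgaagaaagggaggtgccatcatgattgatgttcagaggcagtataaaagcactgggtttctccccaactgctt
IL6R promoter, chr1:154405093-154405342, plus strand: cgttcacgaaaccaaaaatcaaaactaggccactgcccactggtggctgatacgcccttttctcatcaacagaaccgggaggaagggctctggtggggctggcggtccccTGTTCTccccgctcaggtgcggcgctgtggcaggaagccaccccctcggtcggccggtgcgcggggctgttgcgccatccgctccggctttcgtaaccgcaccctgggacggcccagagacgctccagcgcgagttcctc
STK39 promoter, chr2:168247596-168247845, minus strand: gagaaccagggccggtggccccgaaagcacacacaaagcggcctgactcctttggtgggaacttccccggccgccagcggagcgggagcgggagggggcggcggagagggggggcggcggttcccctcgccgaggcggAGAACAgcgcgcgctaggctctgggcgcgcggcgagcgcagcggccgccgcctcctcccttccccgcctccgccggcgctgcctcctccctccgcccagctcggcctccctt
The arm begins 192 bases before the start of MYBPC1, 140 before that of IL6R and 112 before that of STK39, and in SGK1 it lies within the transcribed bases just past the start. Of the 3 promoter windows of SGK1, 1 holds the arm and the other 2 do not. NR3C1, the gene that fell, had 7 windows, with an arm in 0 of them. A match to these letters is a description of the sequence and not evidence of binding.

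Apart from NR3C1, no gene was called lower, and the following lowered values are given as values and not as changes. The 14 genes next in order of p among those with groups that did not overlap had differences of -0.67 to -1.11 and adjusted p of 0.186 to 0.592. NXPE1, a protein of the neurexophilin family, had levels of 7.43, 7.52 and 7.18 with dexamethasone, against 8.33, 8.36 and 8.22 with DMSO, a difference of -0.93 ± 0.18 (adjusted p = 0.186). IL1B is the inflammatory cytokine interleukin-1 beta that glucocorticoids are known to repress in immune cells. It was at 3.98, 3.96 and 3.87 with dexamethasone, against 4.79, 4.76 and 5.60 with DMSO. Its dexamethasone values were at the level of the background probes, and the difference was -1.11 ± 0.24 (adjusted p = 0.289). FGFR2, a fibroblast growth factor receptor, had levels of 6.64, 6.64 and 6.57 with dexamethasone, against 7.29, 7.30 and 7.55 with DMSO, a difference of -0.76 ± 0.18 (adjusted p = 0.384). Among 28 growth factor receptors and ligands, 14 were positive and 14 negative, with a median of 0.05. IGF1R was the 1 called higher, where 0.119% of all genes were.

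NUP107, a nuclear pore component that also sits at kinetochores, had levels of 8.56, 8.38 and 8.60 with dexamethasone, against 9.05, 9.81 and 9.34 with DMSO, a difference of -0.89 ± 0.22 (adjusted p = 0.486). SGO1, which protects the cohesion of sister centromeres, had levels of 10.45, 10.21 and 10.60 with dexamethasone, against 11.03, 11.50 and 11.14 with DMSO, a difference of -0.80 ± 0.20 (adjusted p = 0.507). RAD51AP1, a protein of homologous recombination, differed by -0.95 ± 0.25 (adjusted p = 0.592), and CEP78, a centrosomal protein, by -0.67 ± 0.18 (adjusted p = 0.592). The other members of the 14 were BMERB1 at -0.81, FAM81A at -0.84, the zinc finger gene ZNF624 at -0.95, CA8, a carbonic anhydrase relative, at -0.85, FAM81B at -0.83, SPEF2, a sperm flagellar protein, at -0.91 and C5orf34 at -0.80.

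The mitosis genes gave the most uniform pattern of any list, though 0 of its members were called by limma. At an unadjusted p under 0.05, 27 were lower and 0 higher, against 465 lower and 568 higher of all 17687 genes. Of 42 measured, 41 were negative and 1 positive, the median was -0.51, and in 25 (59.5%) the dexamethasone arrays all lay below the DMSO arrays, against 6.01% of all genes. NDC80, a kinetochore protein that holds microtubules, had levels of 10.61, 10.69 and 10.92 with dexamethasone, against 11.12, 11.88 and 11.76 with DMSO, a difference of -0.85 ± 0.23 (adjusted p = 0.641). CCNA2, the cyclin of S phase and early mitosis, had levels of 12.45, 12.37 and 12.78 with dexamethasone, against 13.00, 13.59 and 13.28 with DMSO, a difference of -0.76 ± 0.21 (adjusted p = 0.694). MKI67, the proliferation antigen Ki-67, had levels of 12.18, 11.93 and 12.26 with dexamethasone, against 12.63, 12.55 and 12.79 with DMSO. Its difference was -0.53 ± 0.18 (adjusted p = 0.770). In all 3 the highest dexamethasone array was below the lowest DMSO array.

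With each gene centred on its mean over the 6 arrays, the median of the mitosis list was -0.24, -0.35 and -0.15 on the dexamethasone arrays, against 0.17, 0.26 and 0.38 on the DMSO arrays. The groups did not overlap in this median. Members of a list share the same 6 arrays and are not independent replicates. Fewer dividing cells and less of each transcript per cell cannot be told apart in bulk RNA.

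DNA replication genes were also mostly negative, but less apart by array. Of 41 measured, 38 were negative and 3 positive, and the median was -0.37. By limma 0 were called, and 7 were lower and 0 higher at an unadjusted p under 0.05. At that p 465 of all 17687 genes were lower. In 6 (14.6%) the dexamethasone arrays all lay below the DMSO arrays, against 6.01% of all genes. ORC6, a subunit of the origin recognition complex, had levels of 7.94, 8.51 and 8.83 with dexamethasone, against 9.02, 9.63 and 9.28 with DMSO, a difference of -0.88 ± 0.26 (adjusted p = 0.694), and the helicase subunit MCM4 differed by -0.52. The centred median of the list was -0.39, -0.23 and 0.12 on the dexamethasone arrays, against 0.04, -0.09 and 0.53 on the DMSO arrays. The groups overlapped, and the arrays numbered 3 were the highest in both. Each dexamethasone array lay below the DMSO array of its own number. Among 24 genes of cell cycle entry (cyclins, E2F factors and cyclin-dependent kinase inhibitors), 9 were positive and 15 negative, with a median of -0.06 and 0 called by limma (2 lower at an unadjusted p under 0.05). E2F8, a repressor of the E2F family, differed by -0.84 ± 0.26 (adjusted p = 0.708).

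**Figure D3:**
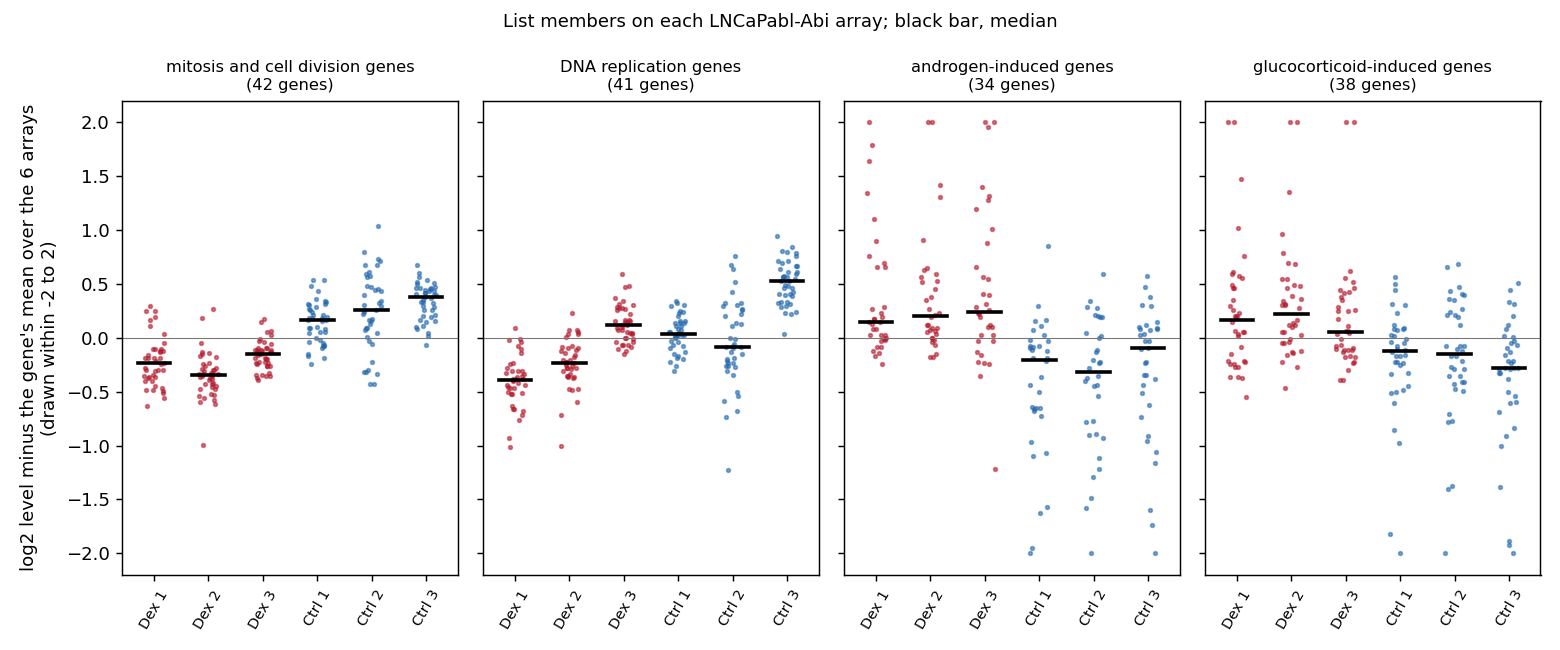
Log2 level minus the gene's mean over the 6 arrays (vertical axis, drawn within -2 to 2) for each member of 4 gene lists on each array, Abi_Dex left of Abi_Ctrl, with a bar at the median. The median of the mitosis list lies at -0.35 to -0.15 with dexamethasone and 0.17 to 0.38 with DMSO, while that of the androgen-induced list lies at 0.15 to 0.24 with dexamethasone and -0.32 to -0.10 with DMSO. The androgen-induced list includes 4 members, and the glucocorticoid-induced list 1, placed there with their values known.

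Genes of the unfolded protein response, fatty acid synthesis and MAP kinase feedback, like those of glycolysis (17 of 22 positive) and the amino acid response (19 of 24 positive), were mostly positive with 0 members called by limma. At an unadjusted p under 0.05, 3, 5, 2, 0 and 0 were higher, in that order, and 0 lower in each. At that p 568 of all 17687 genes were higher. In glycolysis 1 gene (4.55%) and in the amino acid response 0 had dexamethasone arrays all above the DMSO arrays, against 6.27% of all genes. The centred median of the amino acid response was 0.48, 0.20 and -0.40 with dexamethasone, against 0.27, -0.05 and -0.36 with DMSO, so the groups overlapped. Of 27 genes of the unfolded protein response, which answers misfolded protein in the endoplasmic reticulum, 24 were positive and 3 negative, with a median of 0.22 and 5 (18.5%) whose dexamethasone arrays all lay above the DMSO arrays, against 6.27% of all genes. CRELD2 differed by 0.81, the sensor kinase ERN1 by 0.71 and the translocon subunit SEC61B by 0.58. The list's centred median was 0.34, -0.03 and 0.04 with dexamethasone, against -0.02, -0.31 and -0.11 with DMSO, so the groups overlapped. Each dexamethasone array lay above the DMSO array of its own number. Of 18 fatty acid synthesis genes, 14 were positive and 4 negative, with a median of 0.24 and 5 (27.8%) apart in the same direction, against the same 6.27%. Fatty acid synthase FASN differed by 0.47, acetyl-CoA carboxylase ACACA by 0.43 and the acetyl-CoA synthetase ACSS2 by 0.47. Of 29 MAP kinase feedback and immediate early genes, 22 were positive and 7 negative, with a median of 0.11, and the phosphatase DUSP4 differed by 1.42 ± 0.27 (adjusted p = 0.156). Of 26 actin cytoskeleton and motility genes, 13 were positive and 13 negative, with a median of 0.00. RHOU was the 1 called higher, where 0.119% of all genes were.

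**Figure D4:**
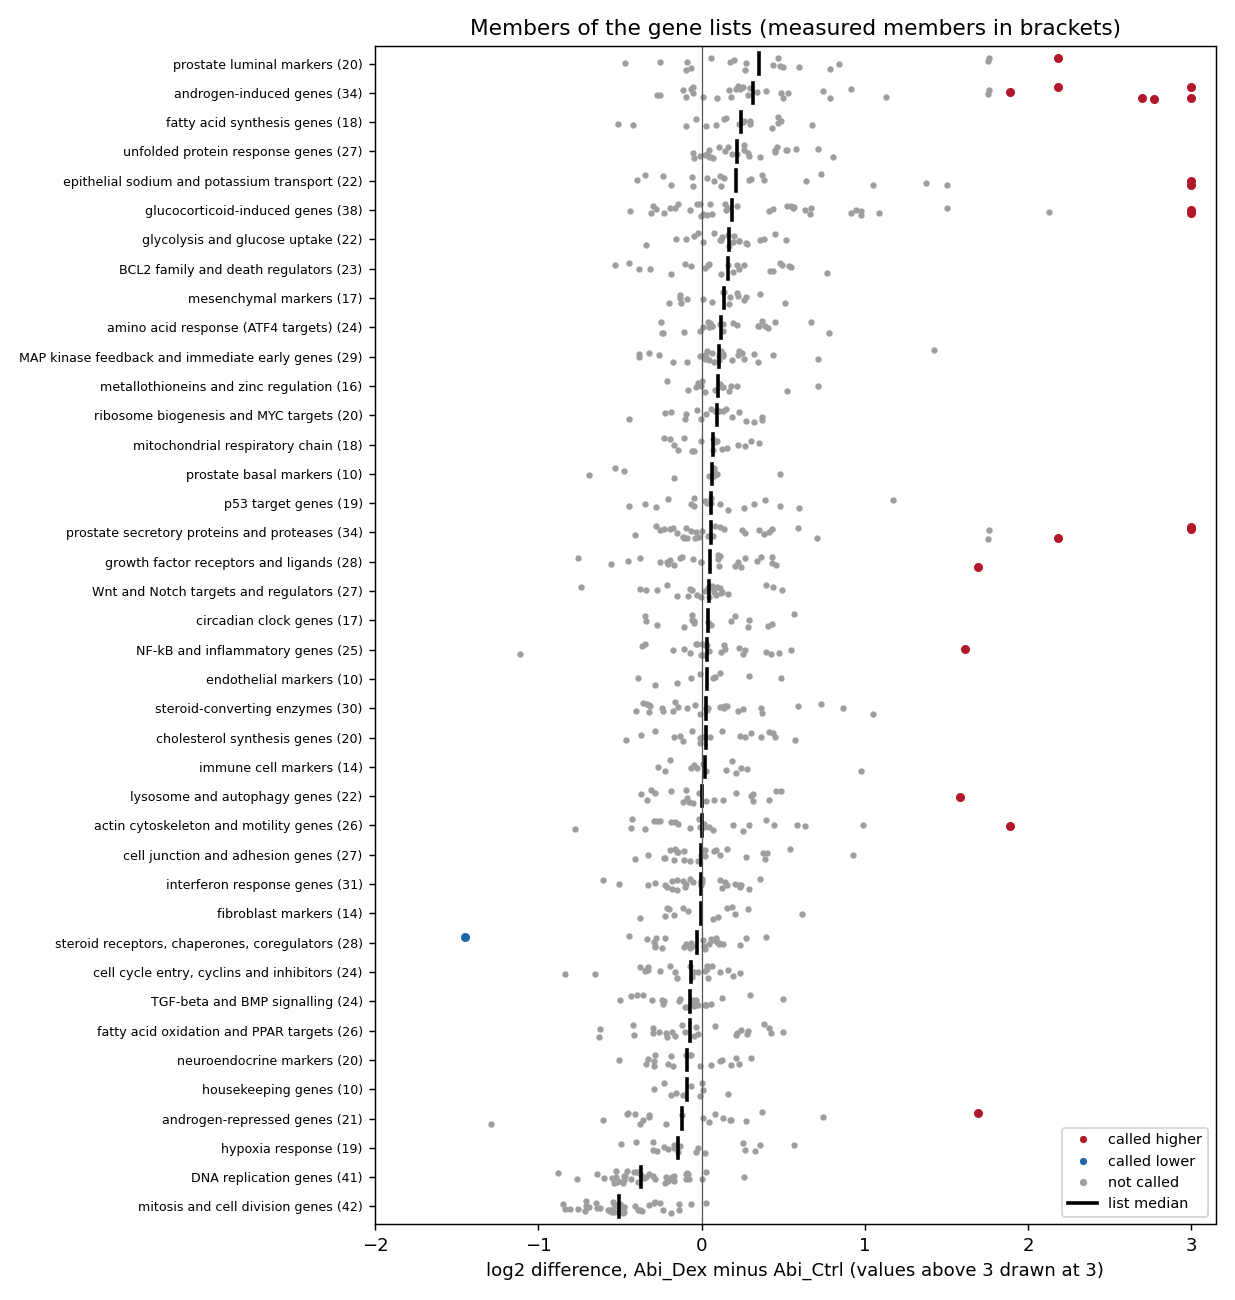
Log2 difference (dexamethasone minus DMSO, horizontal axis) of each measured member of the 40 gene lists, as points coloured where called, with a bar at the list median and values above 3 drawn at 3. Mitosis and DNA replication members lie almost all to the left of 0, with medians of -0.51 and -0.37, and androgen-induced members mostly to the right, with a median of 0.32. Without the 4 androgen-induced members placed on their list with their values known, that median was 0.27.

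The 16 lists of other functions had 0 of 343 members called by limma (13 higher and 5 lower at an unadjusted p under 0.05) and medians between -0.15 and 0.17. At that p 568 of all 17687 genes were higher and 465 lower. Glycolysis (0.17), BCL2 family and death regulators (0.16), amino acid response (0.12), metallothioneins (0.10), ribosome biogenesis (0.09), mitochondrial respiratory chain (0.07), p53 targets (0.06), circadian clock (0.04), Wnt and Notch (0.04) and cholesterol synthesis (0.03) had positive medians. Cell junction (-0.00), interferon response (-0.01), TGF-beta and BMP signalling (-0.07), fatty acid oxidation (-0.07), housekeeping genes (-0.09) and hypoxia response (-0.15) had medians at or below 0. Among single members, the stress cytokine GDF15 differed by 1.17 ± 0.33 (adjusted p = 0.694), the tight junction protein CLDN4 by 0.93, the survival protein BCL2L1 by 0.77, the viral RNA sensor IFIH1 by -0.50 and the Notch ligand JAG1 by -0.74, none called.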

How the data were processed

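Expression was measured on Affymetrix arrays from LNCaPabl-Abi cells, 3 Abi_Dex and 3 Abi_Ctrl arrays of the series' 12. The deposited log2 values were produced with Affymetrix Expression Console and RMA, and limma is also named, per the submitters' processing notes, which give no versions. The genome build is not given in the sources used here. RMA in general subtracts background, normalizes the arrays to 1 distribution and summarises probes, which compresses low values.

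The table had 24351 rows. Of these, 94 were controls and 6642 (controls included) carried no gene symbol. Where a gene had several rows the brightest over the 6 arrays was kept (22 rows dropped), leaving 17687 genes. Groups were taken from the sample titles and compared with limma 3.58.1 in R 4.3.3, on the 6 arrays with no covariate and no filter on dim genes. Calls used a Benjamini-Hochberg adjusted p below 0.05. The fit was tested on simulated data in which 200 of 17687 genes were changed. It recovered 44.8% of those changed by a log2 difference of 1, 92.5% by 2 and 100% by 4. It also called 10 unchanged genes.

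Named genes were, in each direction, up to 15 called genes with the largest difference, then the smallest p, then called or smallest-p members of 40 gene lists, and always NR3C1, TSC22D3, FKBP5, KLK3 and MKI67. Some items are not reported here. Other uncalled list members, such as RGS2, KLF9, KLK2, KRT19, NDC80, CCNA2 and FASN, were named outside this rule with their values known. Members, lists and tests were chosen with earlier results of these data known. Arrays, normalization, filters, moderation, rows per gene, threshold, replicate block and left-out arrays were varied.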

Additional observations from a re-analysis of the deposited data

Results flagged for a closer look

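3 rows of the table without a gene symbol, of 6548 such rows that are not controls, were called higher and 0 lower in a limma fit over all 24257 rows other than controls. They were singled out because they lie outside the named genes that the report compares. TC1700012353.hg.1 had log2 levels of 7.50, 7.95 and 7.56 with dexamethasone, against 6.16, 5.70 and 5.82 with DMSO, a difference of 1.78 ± 0.21 (adjusted p = 0.0290). TC0200016626.hg.1 had levels of 13.81, 13.70 and 13.69 with dexamethasone, against 11.85, 12.35 and 12.28 with DMSO, a difference of 1.58 ± 0.19 (adjusted p = 0.0326). TC0500010766.hg.1 had levels of 15.56, 15.42 and 15.42 with dexamethasone, against 14.19, 14.14 and 13.97 with DMSO, a difference of 1.37 ± 0.16 (adjusted p = 0.0326). Groups of 3 arrays are too small for a test of single outlying arrays.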

How the results depend on the processing

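With 21 genes called higher and 1 lower, the counts changed by over 1.5 times under some settings. With all 12 arrays in 1 fit, 5 genes (PGC, SGK1, SCNN1G, KLK4 and TMPRSS2) were higher and 0 lower (limma, 76 lower at an unadjusted p under 0.05), and with 11 arrays, without Enza_Ctrl replicate 2, 25 were higher and 0 lower (582 unadjusted), with GREB1 lost. Over all rows other than controls 19 were higher and 0 lower (599 unadjusted), of which 15 were among the 21, and IL6R, OTULINL, FAXDC2, CHKA, MYBPC1 and CST1 lost the call. With the replicate number as a block, 35 were higher and 1 lower, the 21 among them, and NR3C1 had an adjusted p of 0.0156. KLK2, RGS2, TSC22D3, KCNMA1 and DUSP4 were among those added. The main fit did not pair the arrays by number. The deviations of same-numbered arrays from their group means correlated at 0.137, 0.083 and 0.303. Those of differently numbered arrays correlated at -0.196 to 0.0979. Abi_Dex replicate 2 correlated slightly better with Abi_Ctrl replicate 1 (0.0979) than with its own number (0.083). Whether the numbers pair the arrays was not tested. Leaving out 1 array gave 10 to 22 genes higher and 0 lower (277 to 759 unadjusted). Filters on dim genes, quantile normalization anew, moderation with a trend, the mean of several rows and an adjusted p below 0.1 gave 15 to 27 higher and 1 lower. Over 16 settings and 66 named genes, 955 values kept direction and call, 79 lost the call, 4 gained it and 0 reversed, and 18 had no value because a filter on dim genes removed the gene. A missed threshold with 3 arrays a group does not show that a gene was unchanged.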

Other observations

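6 genes lay just outside the threshold of 0.05, all higher with dexamethasone. OFD1, a centriole and basal body protein, differed by 1.25 (limma adjusted p = 0.0507), the lipid hydrolase gene ABHD2 by 1.32 (0.0609), PGLYRP2, which cleaves bacterial peptidoglycan, by 1.97 (0.0610), the actin-bundling protein LCP1 by 1.32 (0.0736), the synaptic scaffold gene HOMER2 by 1.13 (0.0964) and BBS12, a chaperonin-like protein of primary cilia, by 1.48 (0.0987).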
